A study of Mus musculus with 4 samples.

Results

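Mesenchymal patterning transcription factors, a set of 9 genes, were examined in single-cell RNA from mouse popliteal vessels. The genes Prrx1, Twist1, Tbx18, Hand2, Osr1, Gli1, Meox1, Meox2 and Tcf21, were chosen by symbol among the 32286 features of the files, as factors linked to the embryonic origin of mesenchyme. The data came from 3 libraries of adult mice that carried an EGFP and Cre cassette at the Wt1 locus (WT1GFPCre) and the Ai9 reporter, a CAG-driven tdTomato at Gt(ROSA)26Sor. Every animal had Evans blue dye injected into the footpad. PLV replicates 1 and 2 held popliteal lymphatic vessels from separate pools of 2 mice, digested for 30 min with collagenase I, Dispase II, DNase and Liberase. The mixed library held lymphatic and blood vessels of 1 further pool of 2 mice, joined after hashtag staining and digested for 60 min without DNase and Liberase. All animals carried both alleles, no untreated or unlabelled strain was included, and in every library Cre was under the Wt1 locus. The hashtags were not used to part the vessels. No comparison of lymphatic with blood vessel cells was made, and vessel of origin is unknown for each cell of the mixed library.

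These factors direct where and which mesenchyme forms in the embryo, and several stay active in adult connective tissue and vessel walls. Prrx1 is a paired-type homeobox factor of limb and lateral plate mesoderm, and Twist1 is a basic helix-loop-helix factor that keeps mesenchyme undifferentiated and binds E-box motifs. Tbx18 is a T-box factor that marks mural cells of many adult organs, Hand2 is a basic helix-loop-helix factor of heart and limb, Osr1 is an odd-skipped zinc finger factor of limb connective tissue, and Gli1 is both an effector and a target of hedgehog signalling. Meox1 and Meox2 are homeobox factors of the somites, of which Meox2 is also known in endothelium, and Tcf21 is a basic helix-loop-helix factor of epicardial derivatives and some fibroblasts.

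In GRCm38 (GENCODE vM21) Osr1, Twist1 and Meox2 lie on the plus strand of chromosome 12, at chr12:9570116-9581500, chr12:33957671-33959829 and chr12:37108540-37179534. Tcf21 (chr10:22817281-22820174) and Gli1 (chr10:127329882-127341974) lie on the minus strand of chromosome 10, and Hand2 (chr8:57320983-57324633) on the plus strand of chromosome 8. Prrx1 (chr1:163245119-163313710), Tbx18 (chr9:87702800-87731260) and Meox1 (chr11:101877510-101894374) are on the minus strand. Hand2 overlaps Hand2os1 and Gli1 overlaps Arhgap9, each on the opposite strand, and whether the authors' counting used strand is not given in the sources used here, so counts of Gli1 and Hand2 are uncertain to that extent.

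After filtering, the libraries held 1909, 516 and 994 cells with 9577642, 3390010 and 7770796 unique molecular identifiers (UMIs), in the order PLV replicate 1, PLV replicate 2 and mixed library, which is kept throughout. Median depth rose from 3372 through 4886.5 to 6162 UMIs per cell, and no cell barcode was shared between libraries. Levels are given in CPM, the UMIs of a gene scaled by the UMIs of all genes over the cells of a class in 1 library. Clusters were made without these 9 genes and named from markers, and the classes held their defining genes. Across the libraries Myh11 ranged from 6008 to 7368 CPM in muscle-like cells, Rgs5 from 3377 to 8461 CPM in pericyte-like cells, Pdgfra from 396 to 917 CPM in fibroblast-like cells, and Prox1 from 676 to 816 CPM in lymphatic and at most 7.62 CPM in blood endothelial-like cells. Muscle-like cells numbered 425, 110 and 315, pericyte-like cells 38, 27 and 58, fibroblast-like cells 387, 87 and 286, blood endothelial-like cells 297, 61 and 174 and lymphatic endothelial-like cells 192, 70 and 53. Over all kept cells the genes gave 7172 UMIs for Prrx1, 2332 for Meox2, 2073 for Twist1, 1239 for Osr1, 1184 for Meox1, 339 for Tbx18, 245 for Gli1, 143 for Hand2 and 2 for Tcf21. The 2 Tcf21 UMIs lay in 2 of the 286 fibroblast-like cells of the mixed library, and no cell of either PLV library had one. The fibroblast-like sums could have shown Tcf21 only above 1.62 CPM in PLV replicate 1 and 6.65 CPM in PLV replicate 2, the level of 3 UMIs.

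Prrx1 and Twist1 were found in muscle-like, pericyte-like and fibroblast-like cells and had few or no UMIs in Schwann-like cells and the named immune classes. Prrx1 stood at 479, 660 and 784 CPM in muscle-like cells, at 1356, 654 and 720 CPM in pericyte-like cells and at 711, 678 and 406 CPM in fibroblast-like cells. The ranges of the 3 classes overlapped, with means of 641 ± 154, 910 ± 387 and 598 ± 167 CPM (SD, n = 3). The muscle-like values join kinds of muscle, described below, that stood at 949 to 1263 and at 169 to 239 CPM. Those kinds lay on either side of the fibroblast-like range. Schwann-like cells had no Prrx1 UMI in any library, and all cells of named immune classes together had 2, both in PLV replicate 1. An unnamed cluster of the mixed library led by Ccl4, Ccl3 and Il7r had 59 Prrx1 UMIs and is given further on. Twist1 stood at 179, 189 and 144 CPM in muscle-like, 203, 155 and 139 CPM in pericyte-like and 322, 191 and 124 CPM in fibroblast-like cells. The fibroblast-like values spread most, and again all 3 ranges overlapped. Fibroblast-like and muscle-like cells did not differ past the threshold in either gene by edgeR's quasi-likelihood test on summed counts with the library as a block (log2 difference 0.04 with SE 0.49 and adjusted p 0.967 for Prrx1, 0.45 with SE 0.24 and adjusted p 0.159 for Twist1). Leaving out the mixed library brought Twist1 past it, with a log2 difference of 0.60 and an adjusted p of 0.0433.

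**Figure D1:**
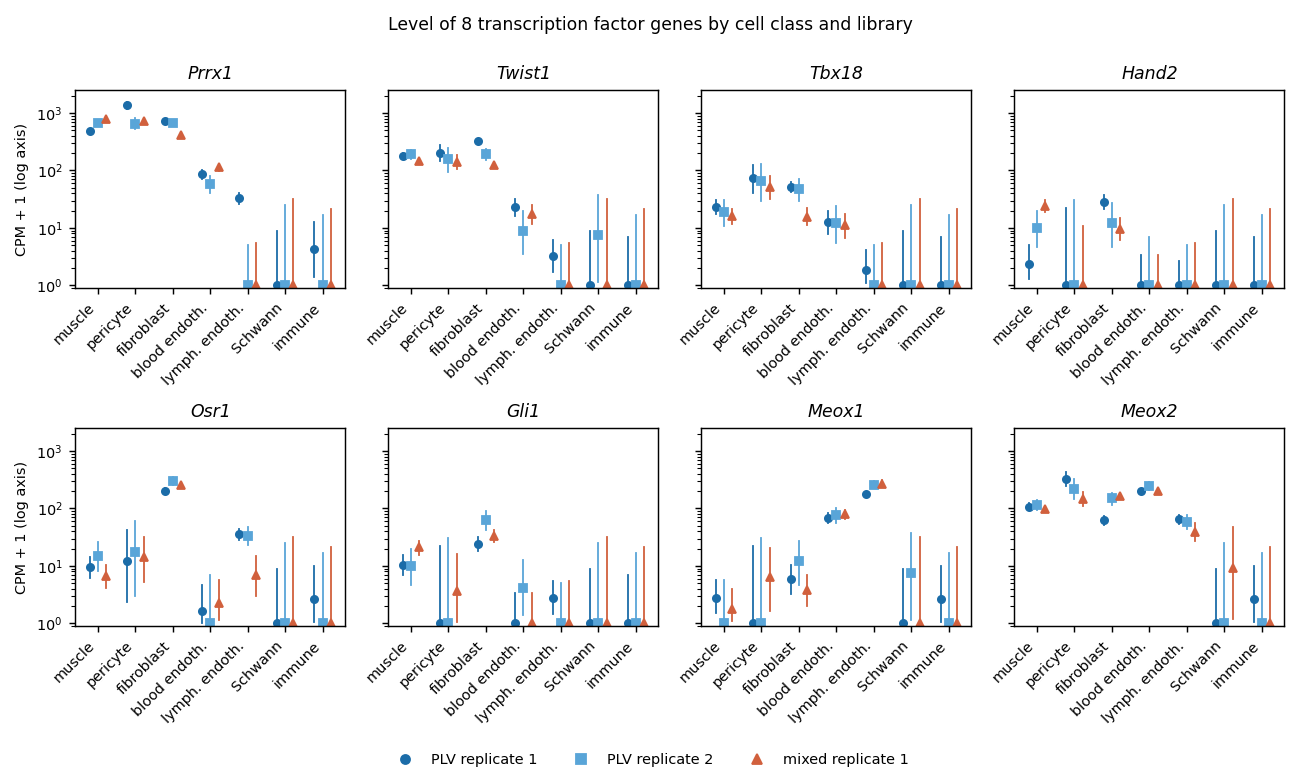
CPM + 1 on a log axis for 8 genes in 7 cell classes, with 1 point per library and 95% Poisson intervals that cover counting error only. Prrx1 and Twist1 are high in muscle-like, pericyte-like and fibroblast-like cells, Osr1 peaks in fibroblast-like cells at 200.2 to 301 CPM, and Meox1 is highest in lymphatic endothelial-like cells at 178 to 270.3 CPM.

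Within the muscle-like cells the picture was divided. Clusters named the Ano1 and Hmcn2 kind and the Pln and Sorbs2 kind, from those markers, were present in all 3 libraries. The first kind held 140, 57 and 198 cells and the second 285, 53 and 43. Hmcn2 was among the 10 leading genes of the first kind in every library, and Ano1 in PLV replicate 1 only. Prrx1, Tbx18, Gli1 and Meox2 were all lower in the Pln and Sorbs2 kind, and Twist1 was slightly higher there. The comparison tested 7059 genes and called 32.4% of them in either direction, 15.7% lower and 16.7% higher. Of the 9 genes 5 passed the filter on low counts and all 5 were called, 4 lower and 1 higher. Tbx18 and Gli1 passed that filter only through their sums in the Ano1 and Hmcn2 kind, where they are high. Genes that are low in both kinds could not enter. The tally thus partly follows from the filter, and no conclusion on the 9 genes as a set is drawn from it.

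Prrx1 showed this division in every library. The Ano1 and Hmcn2 kind had 1119, 1263 and 949 CPM, and the Pln and Sorbs2 kind had 169, 239 and 208 CPM. The groups did not overlap, with a wide gap between the lowest value of the first kind and the highest of the second. Prrx1 UMIs were found in 96.4%, 89.5% and 97% of cells of the first kind and in 52.3%, 75.5% and 81.4% of the second. With every cell thinned to 1500 UMIs the shares were 76.3%, 87.8% and 75.7% against 21.1%, 32.1% and 30.2%. The fitted difference was -2.31 on the log2 scale (SE 0.16, adjusted p 9.47e-14, edgeR), 4.95-fold lower in the Pln and Sorbs2 kind.

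Meox2 followed the same division at lower counts. It stood at 190.5, 192 and 154 CPM in the Ano1 and Hmcn2 kind and at 66.6, 58.6 and 48.1 CPM in the Pln and Sorbs2 kind, again without overlap. The fitted difference was -1.45 (SE 0.19, adjusted p 9.04e-08, edgeR). Tbx18 had 43.1, 34.1 and 17.4 CPM against 12.1, 6.51 and 6.41 CPM, the last 3 values resting on 18, 3 and 2 UMIs. The kinds did not overlap, although the mixed library's 17.4 CPM lay closer to the second kind than the PLV values did. Its fitted difference was -1.72 (SE 0.40, adjusted p 0.000845, edgeR), and DESeq2 gave an adjusted p of 0.0890. Gli1 had 19, 6 and 44 UMIs in the first kind, or 26.4, 18.6 and 33.4 CPM, and 2, 1 and 1 UMIs in the second. All 3 libraries were far lower in the Pln and Sorbs2 kind (log2 difference -3.56, SE 0.61, adjusted p 1.21e-05, edgeR).

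Twist1 went the other way by a small step. The Ano1 and Hmcn2 kind had 143, 164 and 134 CPM and the Pln and Sorbs2 kind 196, 206 and 151 CPM. Each library was higher in the second kind, but the kinds overlapped across libraries. The fitted difference was 0.49 (SE 0.16, adjusted p 0.0206, edgeR), and it was not called by DESeq2 (adjusted p 0.268), without the library block (0.145), without PLV replicate 1 (0.311) or without PLV replicate 2 (0.0557). Without PLV replicate 1, Tbx18 and Gli1 no longer passed the filter on low counts, and 2 of 3 genes tested were called.

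In the main fit Osr1 and Hand2 were too low for the test in these kinds. Leaving out a library could raise the number of genes called, as given further on. Osr1 had 19, 11 and 10 UMIs in the Ano1 and Hmcn2 kind, 26.4, 34.1 and 7.58 CPM, and none in the 381 cells of the Pln and Sorbs2 kind over the 3 libraries. With a floor of 3 UMIs in each library those zeros allow up to 2.02, 6.51 and 9.61 CPM, below the Ano1 and Hmcn2 level in both PLV libraries and above it in the mixed library, where no difference could be detected at this depth. Hand2 had no UMI in any of the 140, 57 and 198 cells of the Ano1 and Hmcn2 kind and 3, 7 and 4 UMIs, or 2.02, 15.2 and 12.8 CPM, in the Pln and Sorbs2 kind. Its zeros allow up to 4.17, 9.31 and 2.28 CPM, so PLV replicate 1 could show no difference at this depth. Meox1 was close to absent in both, with 4 UMIs in 1 cell of the Ano1 and Hmcn2 kind of PLV replicate 1.

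Another muscle-like cluster, led by P2rx1 and Col12a1, occurred in the mixed library only and held 74 cells. It had Prrx1 at 738 CPM with a UMI in 100% of cells, between the other kinds of that library, while Meox2 was at 25.4 CPM, below both. Hand2 was found mostly here among muscle-like cells, with 53 UMIs in 30 of 74 cells (40.5%) and 64.1 CPM (95% exact Poisson interval 48.0 to 83.9, counting error only). Against the Ano1 and Hmcn2 kind of the same library, at 0 of 198 cells, Hand2 was at least 28.2-fold higher with a floor of 3 UMIs. These are values of 1 library without a replicate. Twist1 at 159 CPM lay within the ranges of both other kinds over the 3 libraries. Tbx18 stood at 14.5 CPM and Gli1 at 4.84 CPM on 4 UMIs, beside 5.00 CPM for each in near-empty droplets of that library, and Gli1 is too low to be placed among the kinds.

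**Figure D2:**
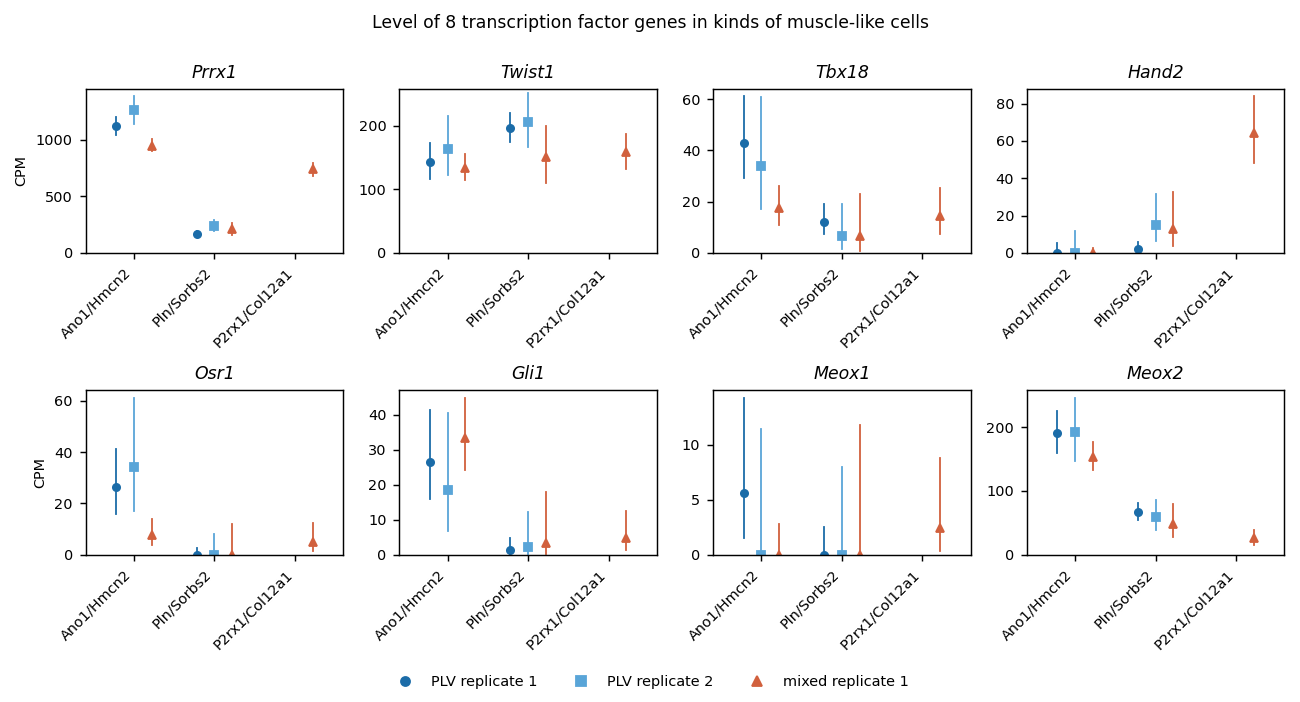
CPM of 8 genes in kinds of muscle-like cells on linear axes that start at 0, with 1 point per library and 95% Poisson intervals for counting error. Prrx1 lies at 949 CPM or above in the Ano1 and Hmcn2 kind and at 239 CPM or below in the Pln and Sorbs2 kind, and Hand2 at 64.1 CPM stands out in the P2rx1 and Col12a1 cluster of the mixed library.

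Fibroblast markers moved with this division and are given beside it. All 8 listed fibroblast genes together summed to 4892 to 7189 CPM in the Ano1 and Hmcn2 kind and to 965 to 2919 CPM in the Pln and Sorbs2 kind, against 67289 to 129293 CPM in fibroblast-like cells. Pdgfra, the defining fibroblast receptor, was at 0 in both muscle kinds of both PLV libraries and had 8 UMIs, or 3.26 CPM, in all muscle-like cells of the mixed library. The part of fibroblast RNA in the differences of Osr1 and the other genes was not tested. The 10 listed pericyte genes summed to 1367 to 2145 CPM and 1282 to 2416 CPM, ranges that overlapped. Near-empty droplets of the mixed library gave Prrx1 at 177 CPM, Hand2 at 12.0 CPM, Meox2 at 51.0 CPM and Tbx18 at 5.00 CPM, against 208, 12.8, 48.1 and 6.41 CPM in the Pln and Sorbs2 kind of that library. They gave Osr1 at 27.0 CPM, above the 7.58 CPM of that library's Ano1 and Hmcn2 kind. The part of free RNA in those levels was not tested. Schwann-like cells of the same library had no Prrx1 UMI.

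Other patterning genes were counted by list in the same muscle comparison, beside 16.7% of all genes called higher and 15.7% called lower in the Pln and Sorbs2 kind. Of the 17 hedgehog pathway genes 5 were tested and 4 were lower, with a list median of -1.29 against -0.00 over all genes. Of 39 Hox genes 9 were tested and 5 were lower, and none was higher. Relatives of the 9 genes gave 3 higher and 3 lower of 7 tested, and other mesenchymal factors gave 7 higher and 6 lower of 22 tested. The genes named next were chosen after their values were seen. Gas1, a hedgehog co-receptor, had 442, 313 and 287 CPM in the Ano1 and Hmcn2 kind and 51.1, 49.9 and 38.4 CPM in the other. Shox2, a homeobox factor of the proximal limb, had 556, 434 and 504 CPM against 84.1, 49.9 and 41.7 CPM, so that it was lower together with Prrx1. In the opposite direction the T-box gene Tbx2 had 4.17, 3.10 and 0.758 CPM in the Ano1 and Hmcn2 kind and 251, 217 and 122 CPM in the Pln and Sorbs2 kind. Foxc1, a forkhead factor of mural and endothelial development, had 6.95, 21.7 and 6.07 CPM against 241, 291 and 151 CPM.

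Sequence upstream of the genes was taken from RefSeq (GRCm38.p6), which held a start site for 6 of the 9 genes, and none for Osr1, Gli1 and Meox1. The windows of the genes that were lower together in the Pln and Sorbs2 kind are shown with that of Twist1, which was not, each 5′ to 3′ on the gene's strand and ending next to the annotated gene. Capitals mark E-boxes (CANNTG, its own reverse complement in pattern, searched on both strands), the motif class bound by Twist1 and Hand2.
Prrx1: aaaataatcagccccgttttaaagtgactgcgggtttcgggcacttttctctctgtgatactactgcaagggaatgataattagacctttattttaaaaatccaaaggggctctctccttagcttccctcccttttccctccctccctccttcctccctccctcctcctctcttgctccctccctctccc
Tbx18: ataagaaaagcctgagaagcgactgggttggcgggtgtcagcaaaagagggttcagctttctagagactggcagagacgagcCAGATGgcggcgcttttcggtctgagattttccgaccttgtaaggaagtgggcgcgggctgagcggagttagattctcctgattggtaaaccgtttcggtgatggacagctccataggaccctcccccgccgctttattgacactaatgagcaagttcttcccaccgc
Meox2: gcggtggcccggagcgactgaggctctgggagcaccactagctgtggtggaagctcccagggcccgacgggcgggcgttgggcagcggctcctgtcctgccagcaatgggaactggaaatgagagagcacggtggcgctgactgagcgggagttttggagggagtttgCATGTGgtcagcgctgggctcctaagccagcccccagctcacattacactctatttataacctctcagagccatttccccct
Twist1: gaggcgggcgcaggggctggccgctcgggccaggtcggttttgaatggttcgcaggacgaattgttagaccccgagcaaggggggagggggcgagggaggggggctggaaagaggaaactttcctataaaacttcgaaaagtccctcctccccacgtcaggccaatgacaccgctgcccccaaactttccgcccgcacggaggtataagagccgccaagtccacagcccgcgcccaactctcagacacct
The windows are chr1:163313711-163313900 on the minus strand for Prrx1 (190 bases), chr9:87731261-87731510 on the minus strand for Tbx18, chr12:37108290-37108539 on the plus strand for Meox2 and chr12:33957421-33957670 on the plus strand for Twist1 (250 bases each). Tbx18 and Meox2 had 1 E-box each, and Prrx1 and Twist1 had 0. An E-box occurred in 66.2% of all 32851 windows of 250 bases, and its presence or absence here only describes these letters. CArG boxes, the motif of serum response factor, occurred in 1.47% of windows and in none of the 6. The Prrx1 window is shorter because the bases of its RefSeq window that lie inside the annotated gene were left out.

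Among whole classes Tbx18 was highest in pericyte-like cells. It stood at 73.4, 65.4 and 50.6 CPM there, on 13, 8 and 19 UMIs, and at 22.2, 17.9 and 15.1 CPM in muscle-like cells. Every pericyte-like value was above every muscle-like value. Fibroblast-like cells had 50.3, 46.5 and 14.7 CPM, a range that overlapped the muscle-like one and ended just below the lowest pericyte-like value. Of 10496 genes tested, 11.9% were called between pericyte-like and muscle-like cells, and Tbx18 was the 1 gene called of 7 tested among the 9 (log2 difference 1.59, SE 0.34, adjusted p 0.00394, edgeR). Without PLV replicate 2 its adjusted p was 0.0624.

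The other genes did not pass that threshold in the main fit. Without the filter on low counts more of them were called, as given further on. Meox2 had 328, 221 and 147 CPM in pericyte-like cells against 107, 114 and 97.3 CPM in muscle-like cells, higher in each library without overlap, with a log2 difference of 0.90 (SE 0.37, adjusted p 0.130, edgeR). Leaving out the mixed library brought it past the threshold (1.11, adjusted p 0.0241). Gli1 had 1 UMI in all pericyte-like cells, in the mixed library, and Hand2 had none. Gli1's fitted difference from muscle-like cells, -3.33 with SE 1.24, had an adjusted p of 0.0993. Prrx1 at 1356 CPM in PLV replicate 1 stood well above the 654 and 720 CPM of the other libraries.

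The lists are counted beside 5.5% of all genes higher and 6.45% lower in pericyte-like cells. Of 11 hedgehog genes tested 2 were lower, Scube3 at 28.2, 24.5 and 32.0 CPM against 78.0, 94.5 and 76.5 CPM, and the receptor Ptch1 at 5.65, 0 and 10.7 CPM against 35.4, 37.0 and 37.0 CPM. Of 10 relatives tested 1 was lower, Osr2, a relative of Osr1, with 0, 0 and 5.33 CPM against 44.0, 56.2 and 56.6 CPM. Hoxa10 was the 1 lower of 21 Hox genes tested. Other mesenchymal factors gave 6 higher and 6 lower of 31, among them Myocd, the coactivator of smooth muscle genes, lower at 28.2, 40.9 and 42.7 CPM against 187, 198 and 195 CPM. Ebf1, an early B-cell factor family member also known in mural cells, was higher at 2451, 2632 and 1642 CPM against 854, 747 and 538 CPM.

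Osr1 set the fibroblast-like cells apart from the other mesenchymal classes. It stood at 200.2, 301 and 258 CPM in fibroblast-like cells, on 370, 136 and 561 UMIs, and at 8.61, 14.0 and 5.70 CPM in muscle-like and 11.3, 16.4 and 13.3 CPM in pericyte-like cells. No fibroblast-like value came near the others, and a UMI was found in 45.5%, 49.4% and 65.0% of fibroblast-like cells. The fitted difference from muscle-like cells was 5.11 (SE 0.39, adjusted p 1.09e-08, edgeR) and from pericyte-like cells 4.59 (SE 0.52, adjusted p 3.24e-06, edgeR).

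Gli1 was the other gene called higher in fibroblast-like cells against both whole classes. Its levels were 23.3, 62.0 and 32.2 CPM there, 9.52, 8.94 and 19.9 CPM in muscle-like cells and 0, 0 and 2.67 CPM in pericyte-like cells. Within muscle-like cells the Ano1 and Hmcn2 kind, at 26.4, 18.6 and 33.4 CPM, lay above the fibroblast-like level in PLV replicate 1 and the mixed library and below it in PLV replicate 2. For the whole classes the fibroblast-like values lay above the muscle-like ones, with a narrow gap between 23.3 and 19.9 CPM of different libraries. The differences were 1.60 from muscle-like (SE 0.43, adjusted p 0.00579) and 4.93 from pericyte-like cells (SE 1.05, adjusted p 0.00184), both by edgeR.

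Against muscle-like cells 39% of 10496 genes were called, 21.6% higher and 17.4% lower in fibroblast-like cells, and 4 of the 7 genes tested among the 9 were called, all higher. Beside Osr1 and Gli1 these were Meox1 (log2 difference 2.21, SE 0.62, adjusted p 0.00761), at 9, 5 and 6 UMIs or 4.87, 11.1 and 2.76 CPM in fibroblast-like cells, and Tbx18 (1.05, SE 0.28, adjusted p 0.00561). The mixed library's near-empty droplets gave Meox1 at 21.0 CPM, above its fibroblast-like level in every library. Such droplets were not analysed for the PLV libraries, and the part of free RNA in these few UMIs was not tested. Without PLV replicate 2 Osr1 alone was called, with adjusted p of 0.0655 for Gli1, 0.0708 for Meox1 and 0.0893 for Tbx18. Without PLV replicate 1 Tbx18 was not called (0.161), and Meox2 was (0.89, adjusted p 0.0199). Against pericyte-like cells 23.6% of genes were called, 13.6% higher and 10.1% lower, and Osr1 and Gli1 were the 2 called of 7. Without the mixed library Meox2 (-1.27, adjusted p 0.00912) and Twist1 (0.87, adjusted p 0.0460) were called as well.

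**Figure D3:**
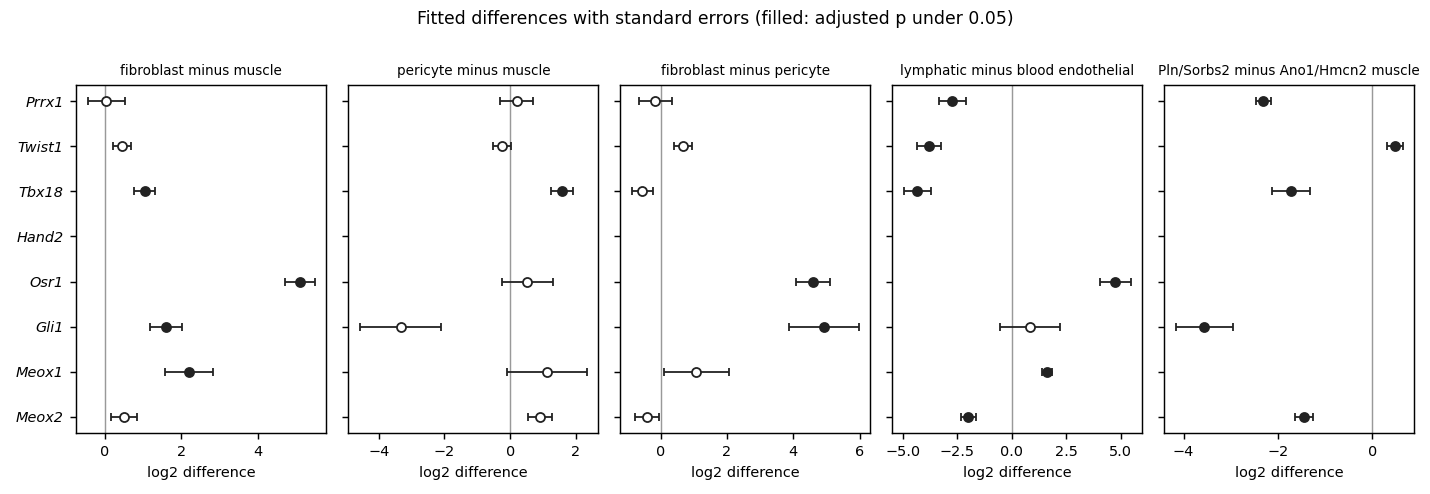
Log2 differences from edgeR with standard errors for 5 comparisons; filled points have an adjusted p under 0.05, and genes that failed the filter on low counts have no point. Osr1 lies at 5.11 and 4.59 in fibroblast-like cells against muscle-like and pericyte-like cells and at 4.76 in lymphatic against blood endothelial-like cells.

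The lists are counted beside 21.6% of all genes called higher and 17.4% called lower in fibroblast-like than in muscle-like cells. Of 11 hedgehog pathway genes tested 7 were higher and 1 was lower. The list median was 1.5 against 0.03 over all genes. Cdon, a hedgehog co-receptor, had 301, 204 and 65.9 CPM in fibroblast-like and 4.99, 5.11 and 4.07 CPM in muscle-like cells (log2 difference 5.36, SE 0.50, adjusted p 5.16e-08, edgeR). The 1 lower was Scube3, a secreted factor of the Scube family, with 0.541, 0 and 0 CPM against 78.0, 94.5 and 76.5 CPM. Relatives gave 4 higher and 3 lower of 10 tested. Prrx2, the paralogue of Prrx1, had 36.8, 28.8 and 69.1 CPM in fibroblast-like cells and no UMI in muscle-like cells of any library, while Tcf15, a basic helix-loop-helix factor of the somites, had none in fibroblast-like cells and 107, 101 and 29.7 CPM in muscle-like cells. Tbx2 had 1.08, 2.22 and 0.461 CPM against 170, 129 and 17.1 CPM. Hox genes gave 0 higher and 2 lower of 21 tested, Hoxa7 and Hoxc8, and other mesenchymal factors 5 higher and 13 lower of 31.

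Subsets of fibroblast-like cells were compared where both subsets had at least 20 cells, which left PLV replicate 1 and the mixed library. The Pi16 subset, of 140 and 41 cells, was set against the Cxcl14 and Scara5 subset, of 109 and 99 cells. No gene of 6742 tested was called by edgeR (0% called), with 536 at an unadjusted p under 0.05, and DESeq2 called 31, none of them among the 9. Osr1 had 182.5 and 171 CPM in the Pi16 subset against 333 and 215 CPM, and Meox2 19.8 and 74.0 CPM against 154 and 93.7 CPM, lower in the Pi16 subset in both libraries (log2 difference -1.50, SE 0.62, adjusted p 0.622, edgeR). Gli1 was listed at 0 of 140 Pi16 cells in PLV replicate 1, which allows a level of up to 3 UMIs. It had 8 UMIs, or 16.5 CPM, in the Pi16 subset of the mixed library. The Cxcl14 and Scara5 subset had 25 and 9 Gli1 UMIs, or 61.1 and 13.2 CPM, so the libraries went opposite ways. Twist1 was 324 and 175 CPM in the Pi16 subset against 137 and 171 CPM.

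Single fibroblast-like clusters carried distinct combinations, described here without a test. The Col4a4 and Itgbl1 cluster, found in the mixed library (137 cells) without a replicate, had the highest Osr1 and Meox2 of any fibroblast subset in that library, 343 and 266 CPM, with Gli1 at 52.8 CPM and the lowest Prrx1 and Twist1 of its 3 named subsets, 317 and 66.3 CPM. Both Tcf21 UMIs were in this cluster. In PLV replicate 1 the cluster led by Myoc and Gpx3 (97 cells) held 38 of the 51 fibroblast-like Hand2 UMIs of that library, 64.1 CPM, with a UMI in 26.8% of cells. In the fibroblast-like class as a whole Hand2 stood at 27.6, 11.1 and 8.75 CPM. Small clusters led by Apod occurred in all 3 libraries, with 41, 14 and 9 cells, and held 3, 0 and 0 Osr1 UMIs, or 33.2, 0 and 0 CPM, where the zeros allow up to 72.3 and 83.8 CPM at 3 UMIs. Osr1 was at 332 CPM in the remaining 73 fibroblast-like cells of PLV replicate 2. In the same Apod-led clusters Tbx18 had 20, 7 and 1 UMIs, or 221, 169 and 27.9 CPM, above the pericyte-like 73.4 and 65.4 CPM in the PLV libraries and below the 50.6 CPM of the mixed library. The 95% exact Poisson intervals were 135 to 342, 67.8 to 348 and 0.707 to 156 CPM.

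**Figure D4:**
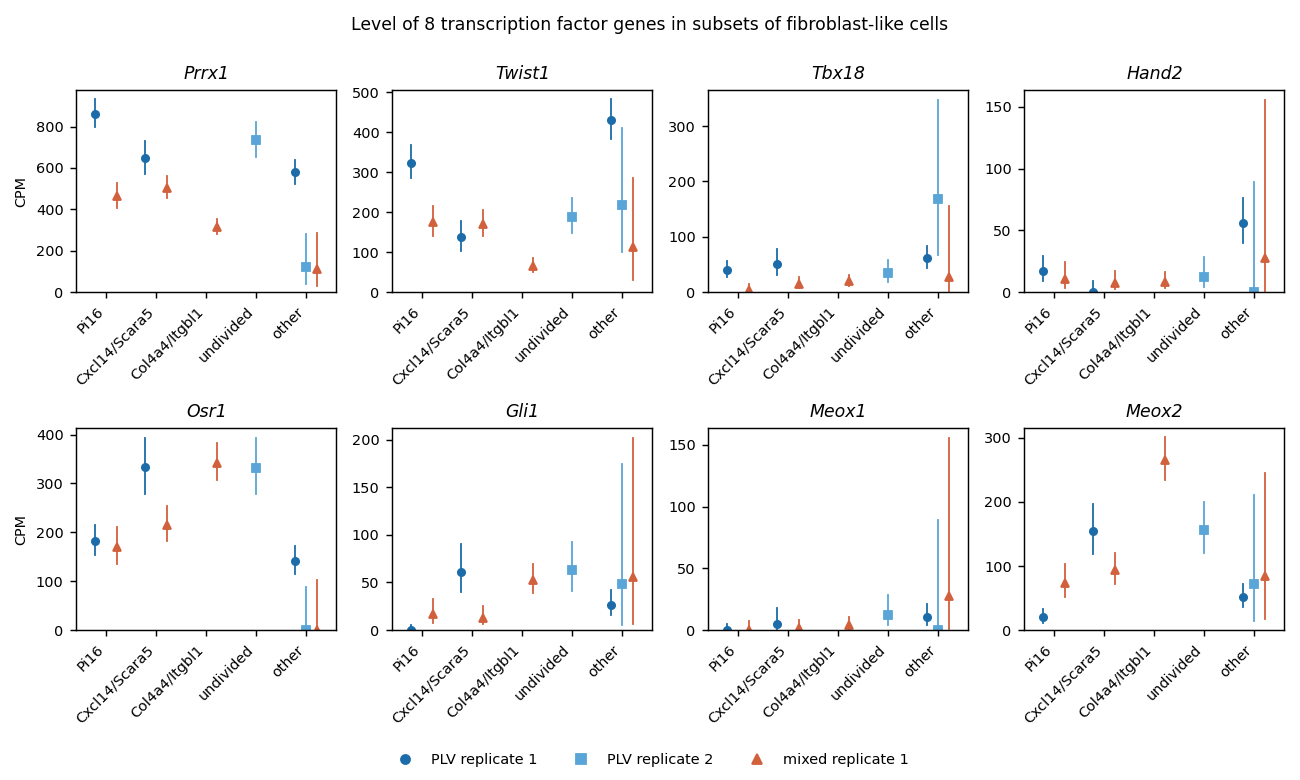
CPM of 8 genes in subsets of fibroblast-like cells on linear axes that start at 0, with 1 point per library and 95% Poisson intervals for counting error; some subsets occur in 1 library only. Osr1 and Meox2 are highest among the mixed library's subsets in the Col4a4 and Itgbl1 subset, at 343 and 266 CPM, and Hand2 is highest in the other fibroblast-like cells of PLV replicate 1.

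In endothelium Meox1 was highest in the lymphatic class. It stood at 178, 259 and 270.3 CPM in lymphatic endothelial-like cells, 66.7, 74.6 and 78.7 CPM in blood endothelial-like cells and at most 1.81 CPM in muscle-like cells. The lymphatic and blood values did not overlap, and a UMI was found in 48.4%, 74.3% and 56.6% of lymphatic against 21.2%, 34.4% and 33.9% of blood endothelial-like cells. Thinned to 1500 UMIs these shares were 25%, 34.9% and 22.9% against 8.04%, 3.45% and 8.82%. The fitted difference was 1.62 (SE 0.23, adjusted p 2.38e-05, edgeR). Of 10496 genes 21.4% were called between these classes, 9.51% higher and 11.9% lower in lymphatic cells, and 6 of the 7 tested among the 9 were called, Meox1 and Osr1 higher and Prrx1, Twist1, Tbx18 and Meox2 lower. Without barcodes that carried markers of 2 cell types, described further on, Prrx1 in blood endothelial-like cells was at 2.33 to 6.94 CPM in place of 57.1 to 112 CPM, and Tbx18 was not called (adjusted p 0.193, edgeR). Among listed genes relatives gave 1 higher and 4 lower of 10 tested, hedgehog genes 2 and 2 of 11, Hox genes 3 and 6 of 21 and other mesenchymal factors 10 and 11 of 31.

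Meox2, the other Meox gene, had the opposite order. It stood at 63.4, 58.0 and 38.6 CPM in lymphatic and 198, 243 and 203 CPM in blood endothelial-like cells, with no overlap (log2 difference -1.99, SE 0.35, adjusted p 0.000204, edgeR). Its pericyte-like range of 147 to 328 CPM enclosed the blood endothelial-like values, and its muscle-like values of 97.3 to 114 CPM lay below them. Near-empty droplets of the mixed library gave Meox2 at 51.0 CPM, above the 38.6 CPM of its lymphatic cells.

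Among blood endothelial-like cells Meox1 differed between vessel segments. Venular clusters had 123, 159 and 157 CPM and capillary clusters 54.1, 48.0 and 36.4 CPM, without overlap. The test used PLV replicate 1 and the mixed library, since the venular cluster of PLV replicate 2 had 12 cells. It called 11.6% of 7242 genes, 6.64% higher and 4.93% lower in venular clusters, and 1 of the 4 tested among the 9, Meox1 (log2 difference 1.82, SE 0.26, adjusted p 0.00123, edgeR). The venular levels lay below the lymphatic ones of the same library in all 3 libraries. In PLV replicate 1 and the mixed library the 10 listed pericyte genes summed to 2414 and 1946 CPM in capillary clusters. They summed to 908 and 380 CPM in venular clusters. Without barcodes of 2 cell types these sums were 370 and 68.2 CPM against 120 and 15.4 CPM. The part of pericyte RNA in the Meox1 difference was not tested. Meox2 did not differ past the threshold, at 224, 219 and 198 CPM in venular and 209, 250.4 and 172 CPM in capillary clusters (0.32, SE 0.17, adjusted p 0.343, edgeR). In PLV replicate 1 a further cluster led by Sema3g and Gja5 (75 cells) had Meox1 at 16.5 CPM, below its capillary level, and in the mixed library a further cluster led by Cytl1 and Vwf (33 cells) had it at 58.0 CPM, above its capillary level.

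Osr1 was found in lymphatic endothelial-like cells at a low level. It had 80, 30 and 5 UMIs in 34, 15 and 4 cells, 35.0, 32.2 and 6.03 CPM, and 1, 0 and 2 UMIs in blood endothelial-like cells. Each lymphatic value was above each blood endothelial value, and the mixed library was lowest. The fitted difference was 4.76 (SE 0.71, adjusted p 5.69e-05, edgeR). The mixed library's near-empty droplets, with under 50 UMIs each and 1000645 UMIs in all, gave Osr1 at 27.0 CPM, above the 6.03 CPM of its lymphatic cells. Such droplets were not analysed for the PLV libraries, where blood endothelial-like cells of the same libraries were at 0.648 and 0 CPM. Against muscle-like cells Osr1 was higher by 1.56 (SE 0.43, adjusted p 0.00678, edgeR), a call lost with DESeq2 (0.0511), without PLV replicate 1 (0.180) and without PLV replicate 2 (0.0582).

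The mural genes were also counted in endothelial-like cells without barcodes that carried markers of 2 cell types. Such barcodes, defined after the data were seen by at least 3 markers of another family with at least 2 UMIs each, made up 67 of 297, 10 of 61 and 37 of 174 blood and 8 of 192, 1 of 70 and 0 of 53 lymphatic endothelial-like cells. With all barcodes Prrx1 stood at 84.8, 57.1 and 112 CPM in blood endothelial-like cells, and without these barcodes at 6.94, 4.39 and 2.33 CPM, on 6, 2 and 2 UMIs. The 10 pericyte genes, which the rule itself uses, summed to 868 to 1949 CPM in the class with them and to 27.9 to 231 CPM without them. In lymphatic endothelial-like cells the 73 Prrx1 UMIs of PLV replicate 1 came from 6 cells, and no UMI remained in 184, 69 and 53 cells. Twist1 then stood at 4.63, 2.19 and 0 CPM in blood endothelial-like cells and at 0 in lymphatic ones. Tbx18 had 2, 0 and 0 UMIs in the blood class and none in the lymphatic class. Meox1, Meox2 and Osr1 in lymphatic cells stood at 173, 267 and 270.3 CPM, 61.5, 52.5 and 38.6 CPM, and 34.5, 23.3 and 6.03 CPM, where leaving out 1 barcode of PLV replicate 2 took Osr1 there from 32.2 CPM.

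Compared with muscle-like cells, both endothelial-like classes were lower in Prrx1, Twist1 and Gli1 and higher in Meox1. Against blood endothelial-like cells 40.2% of genes were called, 21.2% higher and 19% lower in the endothelial-like class, and 6 of 7 tested: Prrx1 (-2.96), Twist1 (-3.37), Osr1 (-3.20) and Gli1 (-4.35) were lower and Meox1 (5.89) and Meox2 (1.02) were higher, with adjusted p between 9.75e-10 and 0.0179 by edgeR. Without PLV replicate 2 Osr1 (adjusted p 0.0527) and Meox2 (0.217) were not called, and Tbx18 was called only in some settings, at -0.73 with an adjusted p of 0.0797 and at -4.24 with 3.92e-05 without barcodes of 2 cell types. Against lymphatic endothelial-like cells 42.5% of genes were called, 21.5% higher and 21% lower, and all 7 tested, with Prrx1 (-5.69), Twist1 (-7.16), Tbx18 (-5.08), Gli1 (-3.53) and Meox2 (-0.98) lower and Meox1 (7.51) and Osr1 higher. Meox2 was not called there without PLV replicate 2 (adjusted p 0.160). Without barcodes of 2 cell types no lymphatic endothelial-like cell had a UMI of Prrx1, Twist1, Tbx18, Gli1 or Hand2. Over the 3 libraries together, 3 UMIs in the remaining lymphatic cells would be 0.814 CPM. Muscle-like cells then stood at 644 CPM in Prrx1, 165 in Twist1, 18.3 in Tbx18 and 13.6 in Gli1. The rule for those barcodes was set after the data were seen. The barcodes left out held every Prrx1, Twist1 and Tbx18 UMI of the lymphatic class, so the zeros depend on that choice and no fold is given. The lower Tbx18 in lymphatic than in blood endothelial-like cells, -4.34 with an adjusted p of 3.60e-05, had an adjusted p of 0.193 without these barcodes.

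**Figure D5:**
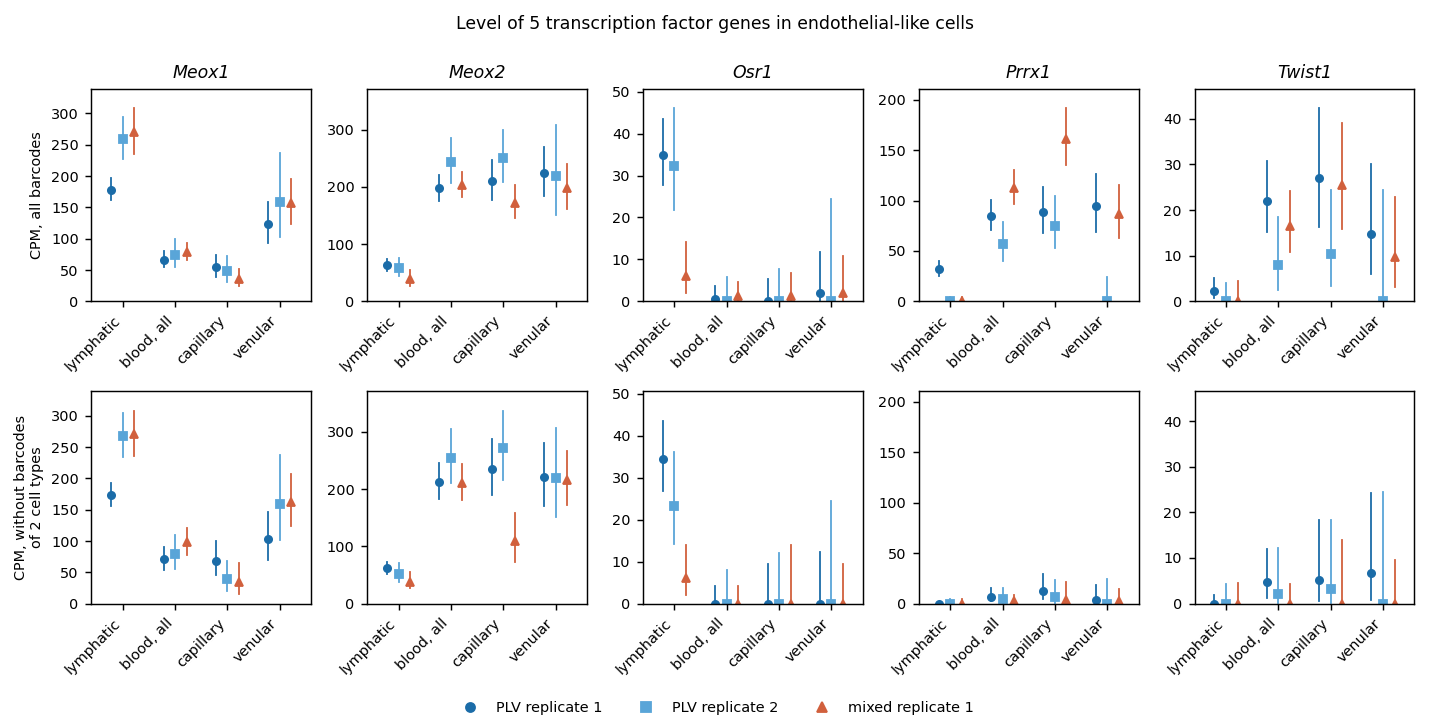
CPM of 5 genes in endothelial-like classes and in capillary and venular clusters, with all barcodes (top) and without barcodes of 2 cell types (bottom), 1 point per library and 95% Poisson intervals for counting error. In the bottom row Meox1 in lymphatic cells lies at 173 to 270.3 CPM, Osr1 in PLV replicate 2 lies at 23.3 in place of 32.2 CPM, and Prrx1 drops to at most 6.94 CPM in blood endothelial-like cells.

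The mixed library was set against the PLV libraries within muscle-like and within fibroblast-like cells. Vessel, digestion, run, mice and software version differ together between these libraries and cannot be told apart, and the fit takes the spread of the single mixed sum, which has no replicate, to equal that of the PLV sums. Its counts of calls rest on that assumption, have no replicate check, and were 0 of the 9 genes with DESeq2 in both classes. In muscle-like cells 15.7% of 10805 genes were called, 8.22% higher and 7.44% lower, and 2 of 7 among the 9, Hand2 and Gli1. Hand2 stood at 1.36 and 8.94 CPM in PLV muscle-like cells, on 3 and 7 UMIs, and at 23.2 CPM on 57 UMIs in the mixed library, of which 53 UMIs lay in the P2rx1 and Col12a1 cluster. DESeq2 gave no adjusted p for Hand2. Gli1 had 9.52 and 8.94 CPM against 19.9 CPM. The PLV values of Hand2 lay far apart, and those of Gli1 close together. Prrx1 at 784 CPM against 479 and 660 CPM did not pass. The Ano1 and Hmcn2 kind made up 198 of 315 muscle-like cells in the mixed library and 140 of 425 and 57 of 110 in the PLV libraries, and within that kind Prrx1 was lowest in the mixed library.

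In fibroblast-like cells 12.2% of 10504 genes were called, 8.12% higher and 4.1% lower, and under the same assumption 1 of 8 among the 9, Meox2. It had 61.2 and 149 CPM in the PLV libraries and 166 CPM in the mixed library. PLV replicate 2 was closer to the mixed library than to PLV replicate 1, so the values do not set the mixed library apart. Of the 360 Meox2 UMIs of the mixed library's fibroblast-like cells, 257 lay in the Col4a4 and Itgbl1 cluster. Tbx18 at 50.3 and 46.5 CPM against 14.7 CPM did not pass.

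Levels of the genes across classes were also compared with each other as a description, over 18 sums of 6 classes in 3 libraries that share depth and cells. Pearson's r of log2(CPM + 5) was 0.96 between Prrx1 and Twist1, 0.93 between Prrx1 and Tbx18 and 0.86 between Gli1 and Hand2. It was 0.11 between Meox1 and Meox2, and -0.59 between Meox1 and Twist1. Among 11102 genes with at least 100 UMIs, over 24 sums per class and library, the gene most like Prrx1 was Shox2 (r = 0.98), and the most like Twist1 was Hoxc9 (0.97). Gli1 was most like Adgrd1 (0.96) and Tbx18 most like Adamts15 (0.97). Meox1 was most like Thsd1 (0.98), Meox2 most like Fzd4 (0.95) and Hand2 most like Osr2 (0.91).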

How the data were processed

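Single-cell 3′ RNA was deposited as UMI counts per gene and barcode, raw and not normalized, made by the authors with Cell Ranger 6.1.2 for the PLV libraries (filtered barcodes) and version 4 for the mixed library (all barcodes), with GRCm38 and Seurat, per the submitters' processing notes. Cells with at least 500 UMIs, 300 genes and at most 15% mitochondrial and 20% haemoglobin UMIs were kept, and predicted doublets (10, 3 and 3) were left out. Each library was clustered alone (scanpy 1.11.5, leidenalg 0.10.2, 2000 variable genes, 50 components, 15 neighbours, resolution 1) without the 9 genes, the listed genes, tdTomato, sex-limited and haemoglobin genes. A cluster was named from at least 3 markers raised 2-fold (20 CPM added) with a UMI in at least 10% of its cells, a detection rule set after clusters were seen, as were the rules for undivided fibroblasts and for barcodes of 2 cell types.

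Counts were summed per library and class (at least 20 cells) and tested with edgeR 4.0.16 (R 4.3.3; TMM, filterByExpr, quasi-likelihood test, library as block, Benjamini-Hochberg at 0.05). The replicate is the library, a pool of mice: 2 PLV pools and 1 mixed pool. With the block, p-values measure how far the differences between classes vary from library to library, with the estimate of spread moderated across genes. The fibroblast subset and venular tests used PLV replicate 1 and the mixed library only. The fits of the mixed against the PLV libraries had no block. The block marks cells of the same library and so the same mice. Depth per library is in the opening. Intervals are 95% exact and, like the floor of 3 counts, cover counting error only. Alternatives were DESeq2 1.42.0, RLE factors, no filter, no block, other cell filters and resolutions, doublets kept and each library left out, and, chosen after seeing the data, leaving out barcodes of 2 cell types. The tests were also run on simulated counts with the same fixed spread for all genes and no library effect. That setting differs from these data, and nothing here rests on it. The 9 genes and the lists were chosen with earlier results of these data known. Other genes were named by a rule: per list, up to 3 with the smallest adjusted p among genes called in fibroblast-like or pericyte-like against muscle-like cells, moving the same way in every library. It did not cover the muscle kinds, where Gas1, Shox2, Tbx2 and Foxc1 were chosen after their values were seen. Likeness used genes with at least 100 UMIs. Values of 1 listed gene that this rule names, and the likeness of Osr1, are not reported here. The hashtag part of the mixed library was not used.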

Additional observations from a re-analysis of the deposited data

Results flagged for a closer look

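The genes also gave UMIs in cells outside the comparisons, above the level of 3 counts that a count of 0 allows. In 15 perineurial-like cells of PLV replicate 1, 46 UMIs of Meox2, 25 of Prrx1, 21 of Twist1, 19 of Gli1 and 4 of Tbx18 were counted. Gli1 was found in 10 of these cells and stood at 181 CPM, above its level in every fibroblast-like class sum.

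Cells that stayed unnamed held others. In PLV replicate 1 these 109 cells, 100 of them in a cluster led by keratinocyte genes that also held pericyte markers, had 79 UMIs of Prrx1, 21 of Meox2, 21 of Twist1 and 6 of Tbx18. In PLV replicate 2 a cluster of 71 cells with a median of 959 UMIs had 8 UMIs of Meox1. In the mixed library 39 cells led by Ccl4, Ccl3 and Il7r, with a median of 1353 UMIs, had 59 UMIs of Prrx1 and 8 of Meox2. The Prrx1 UMIs lay in 24 of these cells (61.5%), a level of 925 CPM. In the same library the Ano1 and Hmcn2 kind had 949 CPM and near-empty droplets 177 CPM. The source of Prrx1 in these cells was not tested.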

How the results depend on the processing

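Of 808 alternative values for single genes 769 kept their side of the threshold, 14 passed it newly and 25 no longer passed. No called difference changed direction, and 20 differences called in neither setting changed sign. The number of the 9 genes called moved as follows. Between fibroblast-like and muscle-like cells it was 4, and 1 to 5 when a library was left out. Between pericyte-like and muscle-like cells it was 1, 4 without a filter on low counts, and 0 to 2 when a library was left out, while all genes called fell from 1254 to 767 with at most 10% mitochondrial UMIs, 783 at resolution 0.5, 803 with doublets kept, 697 without PLV replicate 1 and 566 without PLV replicate 2. Between fibroblast-like and pericyte-like cells it was 2, 4 without the filter, and 2 to 4 when a library was left out. Between muscle kinds it was 5, 3 with DESeq2 (1284 of 2287 genes), 3 with at least 1000 UMIs, 2 at resolution 2 (1398 genes), and 2 to 6 when a library was left out. Tbx18 failed the filter on low counts there with at least 1000 UMIs, at resolutions 0.5 and 2, and without barcodes of 2 cell types or PLV replicate 1. Between fibroblast subsets it was 0, and 2 without the filter (344 genes). Between the mixed and PLV libraries it was 2 in muscle-like cells, 0 with DESeq2 (209 of 1692 genes, with no adjusted p for Hand2) and 1 at resolution 2. In fibroblast-like cells it was 1, 0 with DESeq2 (219 of 1284 genes), 0 with at most 10% mitochondrial UMIs (295 genes), 0 with doublets kept, 0 without barcodes of 2 cell types and 2 at resolution 2. The venular comparison kept 1, with 277 genes by DESeq2 and 250 without the block, against 838. The causes were not tested. Without the library block 4 genes were called between muscle kinds (1493 genes), Twist1 being lost at 0.49 with an adjusted p of 0.145, and no other call of these genes changed. The mixed comparison could not be made with a block or without a library, and resolutions or filters that left a subset in 1 library gave no value.

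Depth limits Tcf21, Hand2 and Gli1 most, and levels of a few UMIs cannot order classes. With 3 libraries, a pool of mice each, a p that misses the threshold does not show that levels were alike.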
